A study of Mus musculus with 4 samples.

Results

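The 9 genes described here handle or sense retinoic acid, and they were followed in white fat from beneath the skin (subcutaneous white adipose tissue) of mice given the compound BML-260 or its vehicle. They were taken from the table by gene name: the uptake receptor gene Stra6, the retinol and retinaldehyde interconversion genes Rdh10 and Dhrs3, the synthesis genes Aldh1a1, Aldh1a2 and Aldh1a3, the carrier gene Crabp2, the receptor gene Rarb and the breakdown gene Cyp26b1. All 9 of 9 names were found among 51912 genes, and 8 of the 9 passed the filter on low counts that left 15643 genes for testing. The list was chosen by pathway and with the expression differences between the BML-260 and vehicle libraries known, so for the 9 genes those differences are given as a description, with no p-value.

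RNA sequencing covered 4 libraries from 8-week C57BL/6 mice, 2 labelled BML-260 (A and B) and 2 given the vehicle DMSO (A and B). BML-260 is known as an inhibitor of the dual-specificity phosphatase DUSP22. The series text speaks of 8 mice, 4 per treatment, but how the mice map onto the 4 libraries, their sex, and the dose, route and duration are not stated in the sources used here. Errors therefore measure only the spread between these libraries, which may be technical. Total expected counts were 19999836 and 23726781 in the BML-260 libraries and 20407836 and 23032466 in the vehicle libraries. All 8 adipocyte markers had counts in every library, with Adipoq at 1662 and 2193 CPM (counts scaled to library size with TMM factors) in BML-260 A and B and at 3022 and 2744 CPM in vehicle A and B. Skeletal muscle markers were present as well and differed between libraries, and BML-260 A alone held many B cell transcripts. Marker values are given below beside those of the members.

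Retinol, or vitamin A, circulates bound to RBP4 and is stored as retinyl esters, in adipose tissue among other sites. Inside cells it is oxidised reversibly to retinaldehyde, which ALDH1A enzymes oxidise irreversibly to retinoic acid. Retinoic acid binds RAR receptors, which pair with RXR on DNA, and CYP26 enzymes break it down. In rodent fat, retinoic acid is known to induce thermogenic genes, and mice lacking Aldh1a1 are known to have more brown-like white fat.

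Of the 9 genes, the breakdown gene Cyp26b1 and the receptor gene Rarb lay higher in both BML-260 libraries, and the synthesis gene Aldh1a1 and the retinaldehyde reductase gene Dhrs3 lay lower in both. Cyp26b1 averaged 25.7 ± 0.279 CPM in BML-260 libraries and 6.99 ± 0.0468 CPM in vehicle libraries (SD, n = 2 each), a fitted 3.67-fold difference. Rarb was 1.93-fold as high in BML-260 libraries as in vehicle libraries. Dhrs3 and Aldh1a1 stood at 0.742 and 0.784 of their vehicle levels. Rdh10, Stra6, Aldh1a2 and Aldh1a3 overlapped between the groups, and Crabp2 was barely detected. Because the tissue was sequenced whole, fewer cells of a type and less RNA per cell cannot be told apart.

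**Figure D1:**
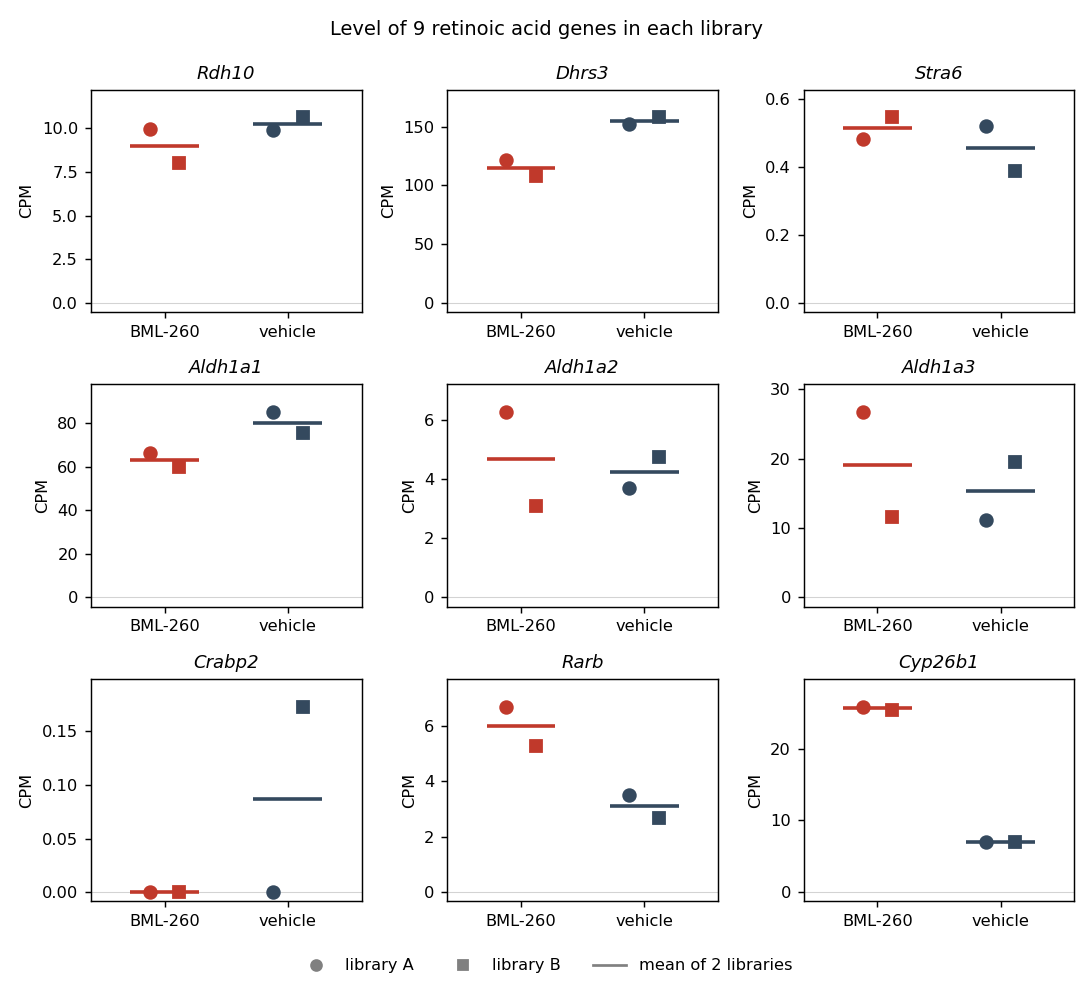
Level of each of the 9 genes in TMM-scaled CPM, on a linear axis of its own for each gene. Circles are libraries A, squares are libraries B, and the line is the mean of the 2 libraries of a group. Cyp26b1 and Rarb are higher in both BML-260 libraries, Dhrs3 and Aldh1a1 are lower in both, and the other 5 genes overlap.

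The number of genes that did not overlap between the groups was 4 of the 8 tested, 2 higher and 2 lower with BML-260. Over all 15643 tested genes, 22.9% lay higher in both BML-260 libraries than in both vehicle libraries and 21.5% lay lower. By the quasi-likelihood test of edgeR, with Benjamini-Hochberg adjusted p-values, 0 of the 8 passed an adjusted p of 0.05, where 1 gene of all those tested did, or 0.00639%, and that gene was higher. Before adjustment, 2 of the 8 were higher and 2 lower with p under 0.05 in that test, against 7.45% and 3.61% of all tested genes. DESeq2 called 1 of the 8, Cyp26b1, where it called 2.59% of all tested genes, 327 higher (2.09%) and 78 lower (0.499%). With limma-voom 0 of the 8 passed, where it called 1 gene of all those tested, or 0.00639%, as higher. In the authors' deposited table Cyp26b1 alone of the 9 is marked significant, with a log2 fold change of 1.65. Of all 51912 genes there, including those below the count filter, 0.688% have an authors' adjusted p under 0.05. Since the choice of the 9 used the same contrast, nothing is read from these counts. The edgeR count over all genes was 0 without vehicle A, 5 without BML-260 B and 309 without vehicle B. Cyp26b1 was the only one of the 8 called in any of these fits, and only in that without vehicle B.

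On the deposited FPKM values, which are per transcript length and can be compared between genes, the 9 genes spanned a wide range. Dhrs3 was the most abundant, with 95.0 and 82.7 FPKM in BML-260 A and B and 121 and 125 FPKM in vehicle A and B. Aldh1a1 followed, with 30.7 and 26.5 FPKM in the BML-260 libraries and 41.9 and 36.5 FPKM in the vehicle libraries. Every other member stayed below 10 FPKM in each library. Among those, the order differed between the groups, and also between BML-260 A and B. Cyp26b1 had 6.33 and 6.11 FPKM with BML-260, inside the range of Aldh1a3 (9.47 and 3.93 FPKM) and above Rdh10 (3.30 and 2.38 FPKM), Aldh1a2 (3.20 and 1.55 FPKM) and Rarb (2.45 and 1.88 FPKM). In the vehicle libraries Cyp26b1 had 1.76 and 1.71 FPKM, below Aldh1a3 (4.04 and 7.04 FPKM) and Rdh10 (3.24 and 3.35 FPKM), below Aldh1a2 (1.92 and 2.42 FPKM) and above Rarb (1.31 and 0.975 FPKM). Stra6 and Crabp2 were lowest in all 4 libraries. With BML-260, Rdh10, Aldh1a2 and Rarb overlapped one another, and their order is not beyond their spread.

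Stra6 encodes the membrane receptor through which RBP4-bound retinol enters cells. Its transcripts were scarce, with 10 and 12 counts in BML-260 A and B and 11 and 9 counts in vehicle A and B. As CPM these are 0.482 and 0.547 in the BML-260 libraries and 0.522 and 0.389 in the vehicle libraries. The groups overlapped, and the log2 fold change was 0.18 (SE 0.51), or -0.02 without vehicle B. The deposited FPKM of Stra6 was 0.202 and 0.455 in the BML-260 libraries against 0.217 and 0.159 in the vehicle libraries, so the FPKM of BML-260 B stood apart where its count did not. The gene at GRCm38 chr9:58063788-58153996 overlaps Ccdc33 on the opposite strand, which had at most 3 counts in any library.

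Rdh10 and Dhrs3 act in opposite directions. RDH10 oxidises retinol to retinaldehyde, the first step towards retinoic acid, and DHRS3 reduces retinaldehyde back to retinol. Rdh10 (chr1:16105774-16133734) had 9.97 and 8.02 CPM in BML-260 A and B and 9.92 and 10.6 CPM in vehicle A and B. BML-260 B was the low library, the groups overlapped, and the log2 fold change was -0.19 (SE 0.20), with a range of -0.37 to -0.05 when each library was left out in turn. Dhrs3 (chr4:144892827-144928209) had 122 and 108 CPM in BML-260 A and B, against 153 and 158 CPM in vehicle A and B. Both BML-260 libraries were below both vehicle libraries, from 2530 and 2381 counts in BML-260 and 3213 and 3656 in vehicle. The log2 fold change of Dhrs3 was -0.43 (SE 0.13), and it stayed between -0.53 and -0.35 with each library left out. The ratio of Dhrs3 to Rdh10 in FPKM was 28.8 and 34.7 in the BML-260 libraries and 37.4 and 37.4 in the vehicle libraries, so reductase transcripts exceeded those of the oxidase in every library.

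The 3 Aldh1a genes encode the retinaldehyde dehydrogenases that make retinoic acid, and they did not move alike. Aldh1a1 (chr19:20492715-20643465) had 66.2 and 59.8 CPM in BML-260 A and B and 85.2 and 75.5 CPM in vehicle A and B. Both BML-260 values lay below both vehicle values, and the log2 fold change was -0.35 (SE 0.13), between -0.44 and -0.28 with each library left out. Aldh1a2 (chr9:71215789-71296243) had 6.26 and 3.10 CPM in BML-260 A and B and 3.70 and 4.75 CPM in vehicle A and B. Aldh1a3 (chr7:66390890-66427517) had 26.7 and 11.6 CPM in BML-260 A and B and 11.2 and 19.5 CPM in vehicle A and B. Aldh1a2 and Aldh1a3 thus shared an order, high in BML-260 A and vehicle B and low in BML-260 B and vehicle A, which runs across the treatment. BML-260 A exceeded BML-260 B 2.02-fold for Aldh1a2 and 2.31-fold for Aldh1a3, and vehicle B exceeded vehicle A 1.28-fold and 1.74-fold. Their log2 fold changes were 0.14 (SE 0.41) and 0.32 (SE 0.46). The sign of both turned without BML-260 A (-0.46 for Aldh1a2 and -0.42 for Aldh1a3) and without vehicle A (-0.06 for each), while without BML-260 B they were 0.56 and 0.79 and without vehicle B 0.33 and 0.77.

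**Figure D2:**
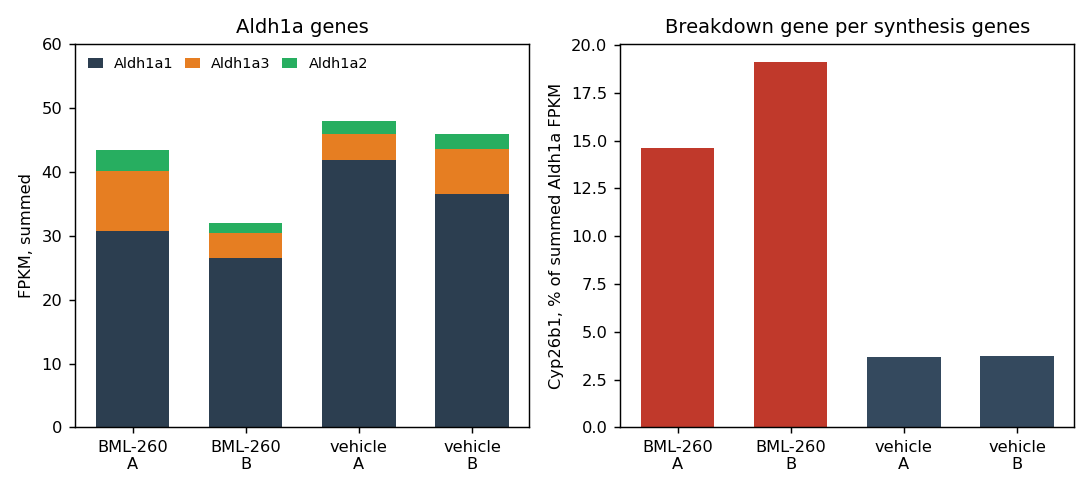
Left, deposited FPKM of Aldh1a1, Aldh1a3 and Aldh1a2 stacked for each library. Right, Cyp26b1 FPKM as a percentage of that sum. Aldh1a1 makes up most of the stack in every library, the Aldh1a3 segment is largest in BML-260 A, and the Cyp26b1 percentage is 14.6% and 19.1% with BML-260 and 3.67% and 3.72% with vehicle.

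Among the 3 members Aldh1a1, Aldh1a2 and Aldh1a3, Aldh1a1 supplied most transcripts in every library. Its share of their summed FPKM was 70.8% and 82.9% in BML-260 A and B and 87.5% and 79.4% in vehicle A and B. Aldh1a3 supplied 21.8% and 12.3% in BML-260 A and B and 8.44% and 15.3% in vehicle A and B. The summed FPKM of the 3 genes was 43.4 and 32.0 in the BML-260 libraries and 47.9 and 46.0 in the vehicle libraries, lower in both BML-260 libraries. In CPM the sums were 99.2 and 74.5 in BML-260 A and B and 100.1 and 99.8 in vehicle A and B. On that scale BML-260 A lay close to both vehicle libraries. Mice also carry Aldh1a7, a close copy of Aldh1a1. It was left out of these shares and sums, and its FPKM was above that of Aldh1a1 in every library. It had 80.4 and 93.8 FPKM in BML-260 A and B and 87.8 and 83.9 FPKM in vehicle A and B. The coding transcripts of Aldh1a1 shared 6.06% of their 50-base stretches with Aldh1a7 and 0% with Aldh1a2 or Aldh1a3, so reads from a small part of Aldh1a1 could have been assigned to either gene. Aldh1a7 had 141 and 170 CPM in BML-260 A and B and 152 and 149 CPM in vehicle A and B, a log2 fold change of 0.05 (adjusted p = 0.918 by edgeR, SE 0.15). The deposited counts of all 9 genes were whole numbers in all 4 libraries.

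Markers of several cell types were ordered like these genes. Macrophage and T and NK cell markers were high in BML-260 A and vehicle B for 5 of 5 genes each, as Aldh1a2 and Aldh1a3 were, with summed macrophage levels of 1041 and 576 CPM in BML-260 A and B and 680 and 823 CPM in vehicle A and B. T and NK cell markers summed to 45.7 and 7.29 CPM in BML-260 A and B and 4.89 and 16.3 CPM in vehicle A and B. Progenitor and fibroblast markers had this order for 5 of 8 genes, with sums of 7672 and 6324 CPM in BML-260 A and B and 5569 and 6927 CPM in vehicle A and B. Among them Dpp4, a marker of adipose progenitors, had 70.4 and 31.1 CPM in BML-260 A and B and 37.4 and 51.2 CPM in vehicle A and B. Pdgfra, Dcn and Lum of the same list did not have this order. Pdgfra had 96.0 and 76.3 CPM in BML-260 A and B and 88.8 and 88.5 CPM in vehicle A and B. Mesothelial markers were scarce, with a summed 3.19 to 4.97 CPM per library and Wt1 and Upk1b at 0 in all 4 libraries. The same order held for 3 of the 6, with small gaps at low levels. In BML-260 A and B, Upk3b had 0.048 and 0.046 CPM, Msln 0.337 and 0.319 CPM and Lrrn4 2.12 and 1.91 CPM. For Upk3b and Msln the gap between BML-260 A and B comes from the library scaling alone, so nothing is read from their order. Epithelial markers summed to 1.25 to 2.55 CPM per library, and 0 of 6 had this order. The part of these cell types in the values of Aldh1a2 and Aldh1a3 was not tested.

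Dhrs3 and Aldh1a1 were lower in both BML-260 libraries, as were 21.5% of all tested genes. So were 4 of 5 endothelial markers, 4 of 8 adipocyte markers and 4 of 5 Schwann cell markers. Some of these gaps were small, with the adipocyte marker Lipe at 2217 CPM in BML-260 B and 2223 CPM in vehicle A. The endothelial markers summed to 388 and 525 CPM in BML-260 A and B and 629 and 578 CPM in vehicle A and B. Adipocyte markers summed to 16435 and 22570 CPM in the BML-260 libraries and 23664 and 22977 CPM in the vehicle libraries. For Schwann cells the sums were 178 and 304 CPM with BML-260 and 598 and 459 CPM with vehicle. Each of these sums was lowest in BML-260 A, while Dhrs3 and Aldh1a1 were lowest in BML-260 B, at 108 and 59.8 CPM. The part of these cell types in the lower Dhrs3 and Aldh1a1 levels was not tested.

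Crabp2 encodes a protein that delivers retinoic acid to RARs in the nucleus. It had 0 counts in BML-260 A, BML-260 B and vehicle A and 4 counts in vehicle B, at chr3:87948666-87953376. Zero counts allow a level of up to 0.144 CPM in BML-260 A, 0.137 CPM in BML-260 B and 0.142 CPM in vehicle A, taking 3 counts as the limit, which covers counting error only. The gene did not pass the filter, and no fold change is given.

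Rarb encodes retinoic acid receptor beta, itself a textbook target of retinoic acid through a response element in its promoter. Rarb had 6.69 and 5.28 CPM in BML-260 A and B and 3.51 and 2.68 CPM in vehicle A and B, from 139 and 116 counts in BML-260 and 74 and 62 counts in vehicle. Both BML-260 libraries were above both vehicle libraries, between 1.50-fold (BML-260 B over vehicle A) and 2.50-fold (BML-260 A over vehicle B). The log2 fold change was 0.95 (SE 0.29), and it lay between 0.76 and 1.13 with each library left out. Of all tested genes, 7.46% had a log2 fold change as high or higher. Rarb (chr14:16430839-16819156) overlaps Top2b on the opposite strand, and without a stated strand setting reads in the shared part cannot be told apart. Top2b had 1750 and 1548 counts in BML-260 A and B and 1614 and 1617 counts in vehicle A and B, with the groups overlapping.

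Rarb was a small part of the RAR transcripts. It made up 7.01% and 6.46% of the summed FPKM of Rara, Rarb and Rarg in BML-260 A and B and 4.50% and 3.37% in vehicle A and B. Rarg, the most abundant of the 3, had 49.3 and 48.0 CPM with BML-260 and 44.3 and 45.4 CPM with vehicle, a log2 fold change of 0.12 (adjusted p = 0.722 by edgeR, SE 0.11). Rara had 29.8 and 18.7 CPM with BML-260 and 21.8 and 21.5 CPM with vehicle, a log2 fold change of 0.16 (adjusted p = 0.832 by edgeR, SE 0.24).

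Promoter windows from 250 bases before to 50 bases after an annotated start were available from RefSeq (GRCm38.p6) for 6 of the 9 genes, 12 windows in all. They were searched on both strands for the receptor half-site AGGTCA, for its variants GGGTCA or AGTTCA or else GGTTCA, and for direct repeats of any of these with a gap of 1, 2 or 5 bases (DR1, DR2 and DR5), so that each repeat also counts as half-sites. The windows of the members that lay higher with BML-260 are shown, with half-sites in capitals and each read along its own gene, on the minus strand at chr14:16575427-16575726 for Rarb and chr6:84593761-84594060 for Cyp26b1.
Rarb: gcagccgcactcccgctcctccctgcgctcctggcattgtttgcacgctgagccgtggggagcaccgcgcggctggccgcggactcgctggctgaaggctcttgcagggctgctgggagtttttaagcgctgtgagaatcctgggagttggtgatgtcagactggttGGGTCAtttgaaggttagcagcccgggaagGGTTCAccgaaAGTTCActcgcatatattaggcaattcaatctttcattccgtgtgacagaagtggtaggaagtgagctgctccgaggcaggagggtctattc
Cyp26b1: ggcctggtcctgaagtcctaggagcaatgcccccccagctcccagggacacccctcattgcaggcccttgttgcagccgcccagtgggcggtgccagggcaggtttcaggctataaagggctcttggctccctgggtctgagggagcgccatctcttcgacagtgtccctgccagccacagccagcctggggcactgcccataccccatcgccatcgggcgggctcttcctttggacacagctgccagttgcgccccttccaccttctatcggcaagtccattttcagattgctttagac

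The Rarb window holds a DR5, GGTTCA and AGTTCA on the gene's strand, from -53 to -37 relative to the window's annotated start. It also holds a single GGGTCA from -83 to -78. This window lies inside Rarb, and the gene's outer start, at chr14:16819156, had no window. The counts are for the whole gene. Of 32851 windows of the same length, 0.0974% hold a DR5, 0.222% a DR1, 0.268% a DR2 and 43.7% at least 1 half-site. The Cyp26b1 window holds none of these letters, which says nothing of sites outside it. Among the other members, a window of Stra6 and a window of Aldh1a1 hold 1 half-site each, and those of Dhrs3 and Aldh1a2 hold none. These matches are a description of sequence, and receptor binding was not measured.

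Cyp26b1 encodes a cytochrome P450 that oxidises retinoic acid to polar products for clearance, and it showed the largest difference of the 8 tested members. It had 25.9 and 25.5 CPM in BML-260 A and B and 7.02 and 6.96 CPM in vehicle A and B, from 537 and 559 counts in BML-260 and 148 and 161 counts in vehicle. The libraries of a group differed by a factor of 1.02 within BML-260 and 1.01 within vehicle, while each BML-260 library was between 3.63-fold and 3.72-fold above each vehicle library. The log2 fold change was 1.88 (SE 0.14), and it lay between 1.85 and 1.88 with each library left out. That narrow range follows from the close agreement within each group. Counting error alone would allow wider gaps at 148 and 161 counts, so this agreement of 2 libraries is a poor measure of spread. Of all tested genes, 3.05% had a log2 fold change as high or higher. Cyp26b1 (chr6:84571414-84593908, minus strand) overlaps no other annotated gene. Its FPKM was 14.6% and 19.1% of the summed FPKM of Aldh1a1, Aldh1a2 and Aldh1a3 in BML-260 A and B. In vehicle A and B it was 3.67% and 3.72%.

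**Figure D3:**
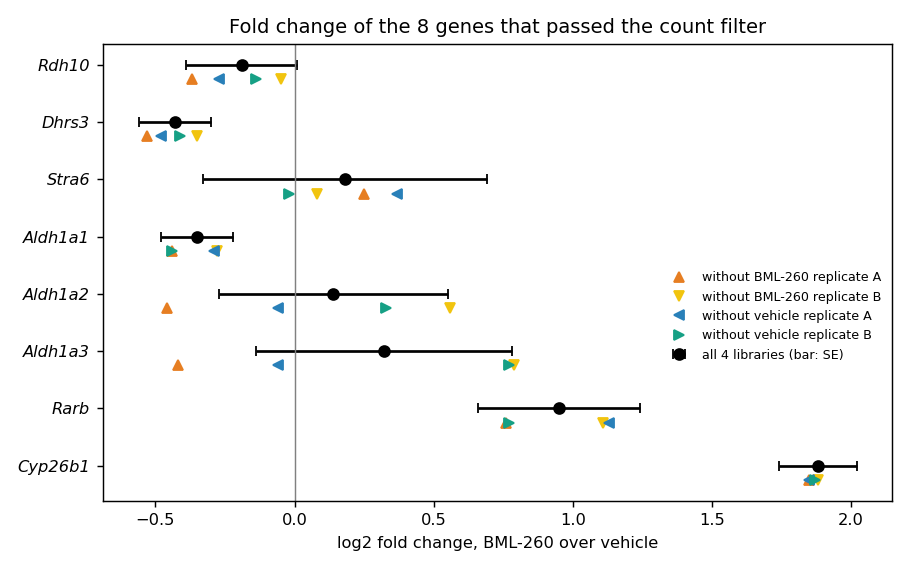
Log2 fold change of BML-260 over vehicle for the 8 genes that passed the count filter. Black points are fits with all 4 libraries and bars are their SE, and coloured triangles are fits with each library left out in turn. Cyp26b1 stays between 1.85 and 1.88, while Aldh1a2 and Aldh1a3 fall on both sides of zero.

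Skeletal muscle markers were also higher in both BML-260 libraries for 8 of 8 genes, with sums of 21365 and 33481 CPM in BML-260 A and B and 283 and 7548 CPM in vehicle A and B. B cell markers summed to 142 CPM in BML-260 A and 2.60 CPM in BML-260 B, against 1.57 and 2.42 CPM in vehicle A and B. The ratio of vehicle B to vehicle A was 26.7 for the muscle sum, 0.991 for Cyp26b1 and 0.763 for Rarb. That of BML-260 A to BML-260 B was 1.02 for Cyp26b1 and 1.27 for Rarb. The part of muscle or lymphoid content in the values of Cyp26b1 and Rarb was not tested.

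The other CYP26 genes were nearly silent. Cyp26a1 had 0 counts in all 4 libraries, which allows up to 0.144 and 0.137 CPM in BML-260 A and B and 0.142 and 0.130 CPM in vehicle A and B. Cyp26c1 had 1 and 1 counts in BML-260 A and B and 0 and 0 in vehicle A and B. The carrier gene Crabp1 had 10 and 2 counts in BML-260 A and B and 0 and 1 in vehicle A and B, so most of its reads came from BML-260 A.

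By centred log2 CPM over the 4 libraries, the genes closest to Cyp26b1 among 13131 others with an average log2 CPM of at least 1 were Pdzd7, Schip1 and Mef2c, at Euclidean distances of 0.29, 0.35 and 0.36. Pdzd7 had 4.72 and 4.33 CPM in BML-260 A and B and 1.28 and 0.994 CPM in vehicle A and B. Mef2c, a transcription factor gene, had 103 and 108 CPM in BML-260 A and B and 23.6 and 32.9 CPM in vehicle A and B. With 4 libraries many genes can share such a profile.

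A further 50 genes of the retinoid pathway and its surroundings were taken from 6 lists, and 34 of them passed the count filter. In edgeR's test 0 of the 34 passed an adjusted p of 0.05 in either direction, and limma-voom called 0 of them. Each of these tests called 1 gene of all those tested, or 0.00639%. Before adjustment, p was under 0.05 for 2 genes higher and 2 lower of the 34, against 7.45% higher and 3.61% lower over all tested genes. DESeq2 called 1 of the 34, Dhrs9, higher, against 2.09% called higher over all tested genes. These shares are near those of all tested genes. The groups did not overlap for 7 genes higher and 8 lower of the 34, against 22.9% higher and 21.5% lower over all tested genes. Their median log2 fold change was -0.06, against 0.02 over all tested genes.

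**Figure D4:**
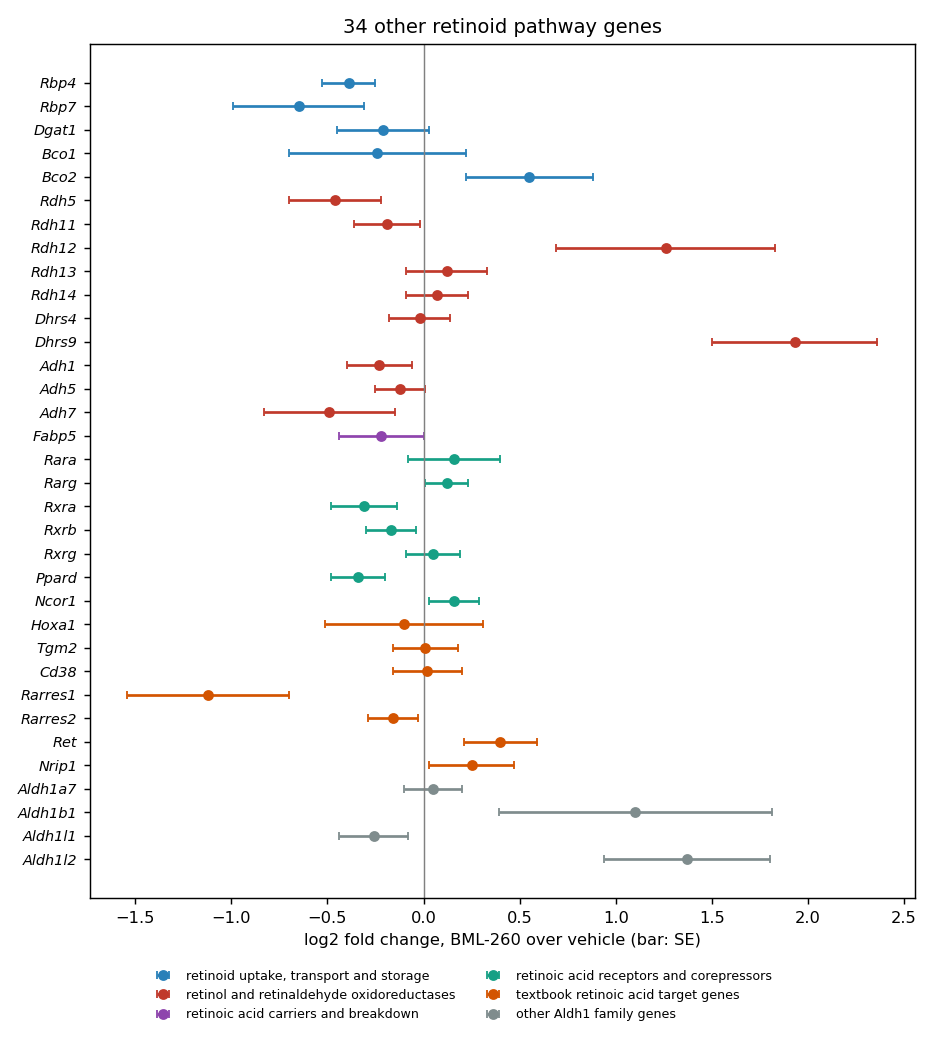
Log2 fold change of BML-260 over vehicle, with SE bars, for the 34 tested genes of the 6 further lists, coloured by list. Most points lie near zero, Dhrs9 is the highest at 1.93 and Rarres1 the lowest at -1.12.

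In the uptake, transport and storage list, 5 of 9 genes were tested, 0 passed, and the p of 1, which was lower, was under 0.05 before adjustment. This was Rbp4, the gene of the blood carrier of retinol, which fat also secretes, with 192 and 205 CPM in BML-260 A and B and 249 and 270 CPM in vehicle A and B. Its log2 fold change was -0.39 (adjusted p = 0.430 by edgeR, SE 0.14), and both BML-260 libraries were below both vehicle libraries. Rbp7, a cellular retinol-binding protein gene, had a log2 fold change of -0.65 (adjusted p = 0.546 by edgeR, SE 0.34), with 6.65 CPM in BML-260 A, 13.4 CPM in BML-260 B and 15.6 and 15.9 CPM in vehicle A and B.

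Of the 16 other retinol and retinaldehyde oxidoreductase genes, 10 were tested, 0 passed the edgeR test, and before adjustment p was under 0.05 for 1 higher and 0 lower. Dhrs9, whose product oxidises retinol, had 6.60 and 3.55 CPM in BML-260 A and B and 1.09 and 1.56 CPM in vehicle A and B. Both BML-260 libraries were above both vehicle libraries, but they differed from each other as well. Its log2 fold change was 1.93 (adjusted p = 0.320 by edgeR, SE 0.43), and DESeq2 gave an adjusted p of 0.0297. Rdh12, a retinaldehyde reductase gene best known from photoreceptors, had 0.867 and 0.683 CPM with BML-260 and 0.427 and 0.216 CPM with vehicle, a log2 fold change of 1.26 (adjusted p = 0.483 by edgeR, SE 0.57). The median of the 10 was -0.07.

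All 7 receptor and corepressor genes were tested, 0 passed, and before adjustment p was under 0.05 for 0 of them. Rxra, a partner receptor of the RARs, had 195 and 242 CPM with BML-260 and 280 and 262 CPM with vehicle, a log2 fold change of -0.31 (adjusted p = 0.552 by edgeR, SE 0.17). Ppard, a fatty acid receptor gene that also pairs with RXR, had a log2 fold change of -0.34 (adjusted p = 0.461 by edgeR, SE 0.14). Fabp5, the only tested gene of the carrier and breakdown list, had 203 and 294 CPM with BML-260 and 273 and 307 CPM with vehicle, a log2 fold change of -0.22 (adjusted p = 0.736 by edgeR, SE 0.22).

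Of 10 textbook retinoic acid target genes 7 were tested, 0 passed, and before adjustment p was under 0.05 for 0 higher and 1 lower. Rarres1, a gene named for its induction by retinoids in human cells, had 0.578 and 0.547 CPM with BML-260 and 1.33 and 1.12 CPM with vehicle, a log2 fold change of -1.12 (adjusted p = 0.436 by edgeR, SE 0.42), from 12 and 12 counts in BML-260 and 28 and 26 in vehicle. Ret, a receptor tyrosine kinase gene, had 10.6 and 10.5 CPM with BML-260 and 8.50 and 7.43 CPM with vehicle, a log2 fold change of 0.40 (adjusted p = 0.501 by edgeR, SE 0.19). Hoxb1, Cdx1 and Stra8 had 0 counts in all 4 libraries. The list's median log2 fold change was 0.01, with 4 genes above zero and 3 below.

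Among 4 other Aldh1 family genes, all tested, 0 passed the edgeR test and Aldh1l2 was higher at an unadjusted p under 0.05. Aldh1l2, a mitochondrial folate enzyme gene, had 6.12 and 5.47 CPM in BML-260 A and B and 1.38 and 3.07 CPM in vehicle A and B, a log2 fold change of 1.37 (adjusted p = 0.389 by edgeR, SE 0.43). Aldh1b1, a mitochondrial aldehyde dehydrogenase gene, had a log2 fold change of 1.10 (adjusted p = 0.607 by edgeR, SE 0.71), with 1.64 and 0.501 CPM with BML-260 and 0.380 and 0.605 CPM with vehicle.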

How the data were processed

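TRIzol was used for RNA extraction and standard Illumina protocols for the libraries, per the labels. The authors deposited 1 table of 51912 genes with expected counts per gene, which need not be whole, FPKM values, group means of both with their log2 values, and their own comparison as a log2 fold change, p-value and adjusted p-value. The build GRCm38.p5, DESeq2 1.10.1, RSEM 1.2.31 and HISAT2 2.1.0 are named, without role, per the submitters' processing notes. The annotation, the filters and whether strand was used are not given in the sources used here.

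The members and lists were chosen with earlier results of these data known. Expected counts were rounded, filtered with filterByExpr (15643 genes left) and tested with edgeR 4.0.16 (R 4.3.3) quasi-likelihood, TMM factors and a two-sided test of group, the only term, with Benjamini-Hochberg adjustment over all tested genes. There were 2 residual and 3.28 prior degrees of freedom. The SE of a log2 fold change is its size over the root of the F statistic. The depth of 19999836 to 23726781 counts per library, scaled by the TMM factors, sets the limits given for genes at 0. Coordinates are from GENCODE vM21 (GRCm38), which matched 51633 identifiers, and promoters from RefSeq. Named genes are the members, the 2 tested genes per list with the smallest unadjusted p, Rbp4, Crabp1, Cyp26a1, Cyp26c1, Rara, Rarg, Rxra and the 3 closest profiles to Cyp26b1. Aldh1a7, Top2b, Ccdc33, Adipoq, Lipe, Dpp4, Pdgfra, Dcn and Lum were named after their values were seen. So were Wt1, Upk1b, Upk3b, Msln, Lrrn4, Hoxb1, Cdx1 and Stra8. Alternatives were DESeq2 1.42.0, limma-voom (limma 3.58.1), other scalings and filters, an adjusted p of 0.1, the library letter as a term, leaving out each library and, for the Aldh1a shares, CPM. The tests were also run on simulated counts, where each made false calls, DESeq2 the most. Each missed many 2-fold differences, DESeq2 the fewest. The pathway lists and their counts leave out 2 genes that are not reported here.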

Additional observations from a re-analysis of the deposited data

How the results depend on the processing

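The count of genes called over all tested genes, 1 with all libraries, was 651 with no filter on low counts (565 higher, 86 lower), 405 with DESeq2 (327 higher, 78 lower), 0 with the replicate block on the library letter, and 0 to 309 with each library left out. Of the members, 0 were called with all libraries. Cyp26b1 was the 1 called with no filter and with DESeq2. The members were chosen with this contrast known, so nothing is read from these calls. Of the other pathway genes Dhrs9 was the 1 called with no filter and with DESeq2. The cause of these shifts was not tested. Same-letter libraries did not deviate together over all tested genes (correlation of their deviations from the group means -0.0232). With 2 libraries per group this cannot exclude a pairing or a shared batch. The letters are not stated to mark a pair. The log2 fold change of Cyp26b1 was 1.82 with library totals, 1.86 with at least 1 CPM in 2 libraries, and 1.85 to 1.88 with each library left out. With libraries left out, ranges were -0.37 to -0.05 for Rdh10, -0.53 to -0.35 for Dhrs3, -0.02 to 0.37 for Stra6, -0.44 to -0.28 for Aldh1a1, -0.46 to 0.56 for Aldh1a2, -0.42 to 0.79 for Aldh1a3 and 0.76 to 1.13 for Rarb. Over the alternatives that kept all libraries, 0 of the members' fold changes turned sign. A fit without 1 library assumes that the lone library varies like the other group. Depth limits Stra6 and Crabp2, and 2 libraries per group limit every comparison.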
